A study of Mus musculus with 4 samples.

Results

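The 9 genes described here build, load and switch on the major histocompatibility complex (MHC) class II molecule, the surface protein that shows peptides to CD4+ T cells. They are H2-Aa, H2-Ab1, H2-Eb1, Cd74, H2-DMa, H2-DMb1, H2-DMb2, H2-Oa and Ciita, chosen by symbol from the 31053 genes in the count files, and each symbol matched 1 gene. They were followed through immune cells of healing mouse skin. Wounds of 3 mm were made on the skin of male mice of 8 weeks, either wild-type C57BL6/J (Angptl4+/+) or lacking Angptl4 (Angptl4-/-), a gene for a secreted matrix-associated protein, and harvested at 1 or 5 days post-wounding (dpw). Live cells carrying the pan-leukocyte protein CD45 were sorted from collagenase-digested wounds and sequenced in droplets, as 1 library for each genotype and day. How many mice each library pooled is not given in the sources used here.

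Of the members, 7 lie within the class II region of chromosome 17 (GRCm38). From the centromere outward they are H2-Oa (34092340 to 34095234), H2-DMa (34119541 to 34139101), H2-DMb2 (34143307 to 34151555), H2-DMb1 (34153072 to 34160230), H2-Ab1 (34257689 to 34269419), H2-Aa (34282744 to 34287823, minus strand) and H2-Eb1 (34305867 to 34316674). Cd74 lies on chromosome 18 (60803848 to 60812652) and Ciita on chromosome 16 (10480059 to 10528418). Angptl4 is on chromosome 17 too (33773750 to 33781830), 310.5 kb from H2-Oa and 524 kb from H2-Eb1, so that the loss of Angptl4 and any difference in the linked DNA of the knockout chromosome cannot be told apart. The strain in which the Angptl4-/- allele was made is not given in the sources used here.

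In antigen-presenting cells an alpha and a beta chain pair in the endoplasmic reticulum and are held by the invariant chain, Cd74, which fills the peptide groove and directs the complex to endosomes. Lysosomal proteases trim Cd74 to a short fragment, H2-DM exchanges this fragment for a peptide, and H2-DO holds H2-DM back. Ciita is the transactivator that these promoters depend on. Dendritic cells and B cells make class II genes constitutively, whereas monocytes and macrophages make them at levels that vary with their stimulation, interferon-gamma being the best known inducer. H2-Aa and H2-Ab1 encode the chains of I-A. H2-Eb1 encodes the beta chain of I-E, which C57BL6/J mice do not display because they lack a working alpha chain gene.

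RefSeq promoters (GRCm38.p6) were matched for 6 of the 9 genes. The following 5 are printed because they carry boxes through which class II genes are known to be switched on together. Each runs over the 150 bases before the RefSeq transcription start, 5′ to 3′ on the strand of the gene. The gene coordinates given above come from a separate annotation. The stretches of H2-Oa, H2-DMb2 and H2-DMb1 reach into the genes as placed there, so positions hold for the RefSeq start only. Capitals mark the Y box (TGATTGG, the NF-Y motif), the letters used here for the X box (GATGATG) and the palindromic cyclic-AMP element TGACGTCA. They were chosen after these sequences had been seen, and were searched on both strands. Other forms of the X box were not searched, so none can be called absent from H2-Oa or H2-Aa. The promoters matched for the remaining gene, H2-DMa, held none of these letters and are not printed. They end at 34122831 and 34125517, inside the gene coordinates given above, and other starts of H2-DMa were not searched.
H2-Oa, chr17:34092229-34092378, plus strand: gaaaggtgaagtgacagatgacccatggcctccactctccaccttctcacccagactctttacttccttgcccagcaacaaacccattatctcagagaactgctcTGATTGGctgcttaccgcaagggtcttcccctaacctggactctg
H2-DMb2, chr17:34145099-34145248, plus strand: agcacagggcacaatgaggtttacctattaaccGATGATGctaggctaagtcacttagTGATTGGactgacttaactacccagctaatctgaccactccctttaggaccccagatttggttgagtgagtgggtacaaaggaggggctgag
H2-DMb1, chr17:34153041-34153190, plus strand: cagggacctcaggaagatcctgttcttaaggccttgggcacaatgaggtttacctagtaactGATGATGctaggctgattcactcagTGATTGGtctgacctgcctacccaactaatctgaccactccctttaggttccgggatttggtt
H2-Aa, chr17:34287824-34287973, minus strand: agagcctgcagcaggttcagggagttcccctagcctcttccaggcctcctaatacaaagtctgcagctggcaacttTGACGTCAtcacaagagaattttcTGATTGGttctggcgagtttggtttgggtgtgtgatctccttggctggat
H2-Eb1, chr17:34305717-34305866, plus strand: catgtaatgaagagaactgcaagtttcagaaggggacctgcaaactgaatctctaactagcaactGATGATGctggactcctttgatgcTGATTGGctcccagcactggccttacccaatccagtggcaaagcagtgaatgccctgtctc

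The Y box lay 45 bases before the RefSeq start in H2-Oa, 50 in H2-Aa, 61 in H2-Eb1, 63 in H2-DMb1 and 92 in H2-DMb2, counted at its first base. In H2-DMb1 and H2-DMb2 the X box letters stood 18 bases upstream of the Y box, and in H2-Eb1 17 bases. In H2-Aa the cyclic-AMP element stood 16 bases upstream of the Y box. Among 32851 mouse promoters searched over 250 bases, 7.23% held the Y box letters, 2.92% the X box letters and 1.55% the cyclic-AMP element. A Y box together with either of the others was found in 107 of them (0.326%). These matches are a description of letters and were not measured as binding.

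The deposited values were unique molecular identifier (UMI) counts, 1 count for each captured mRNA molecule. Cells with at least 200 genes and at most 10% mitochondrial UMIs were kept, which left 19827 of 20069 barcodes, 4738 to 5346 per library, with medians of 4975.5 and 4814.5 UMIs at 1 dpw and 3873 and 3735.5 at 5 dpw (Angptl4+/+ first). Of the barcode sequences, 50 occurred in 2 libraries. Angptl4 had 47 and 78 UMIs in the Angptl4+/+ libraries and 0 in both Angptl4-/- libraries, and Ptprc, the gene of CD45, was detected in 89.8 to 93.8% of cells. Clusters were formed without the class II genes and named from marker lists that hold none of them. Levels are given in CPM, for which the UMIs of a gene were added up within a cell class and scaled to 1000000 UMIs of all genes in the same cells. Ratios of levels are on the log2 scale. Both carry 95% intervals. With 1 library in each group no test between groups could be made, and the intervals cover counting error only. A gene was counted as higher or lower past a 2-fold ratio, among genes with at least 20 UMIs over both libraries.

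Class II transcripts came mainly from dendritic cell-like and macrophage-like cells, and the balance between these classes differed by day. Dendritic cell-like cells held 71.7% of all member UMIs in Angptl4+/+ wounds at 1 dpw, although they were 1.98% of the cells. At 5 dpw they held 43.4%, and macrophage-like cells held 51.1% against 20.4% at 1 dpw. In Angptl4-/- wounds the dendritic cell-like share was 55.2% at 1 dpw and 46.4% at 5 dpw, and the macrophage-like share 29.8% and 47.1%. Macrophage-like cells were 18.9% and 28.8% of Angptl4+/+ cells and 15% and 13% of Angptl4-/- cells at the 2 days.

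**Figure D1:**
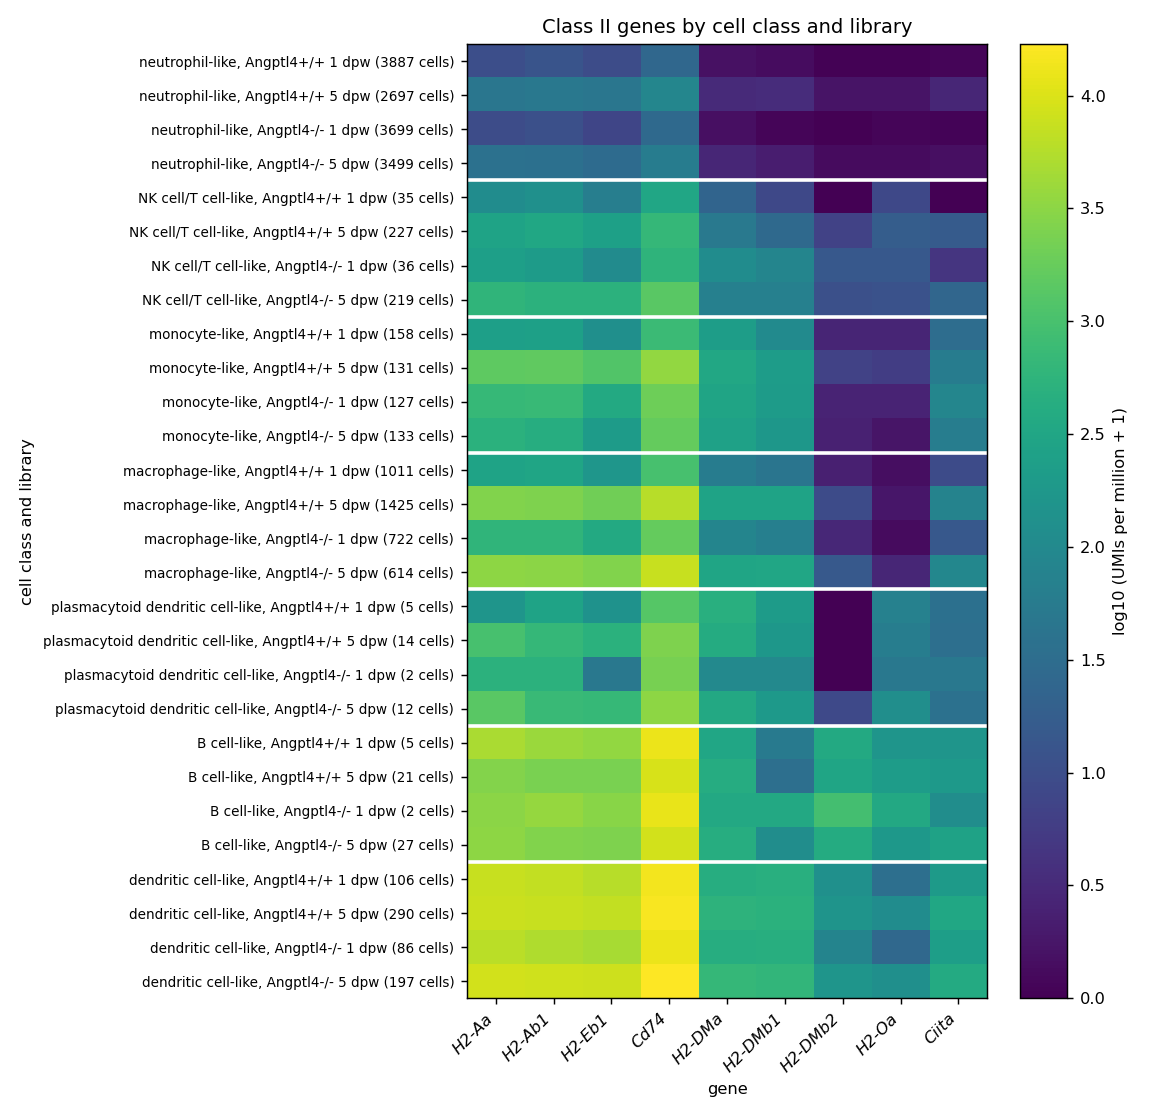
Level of each class II gene (columns) in each cell class and library (rows) in CPM on a log10 scale with 1 added, from dark purple (lowest) to yellow (highest). Cd74 was the most abundant member in every dendritic cell-like row (12820 to 16930 CPM), and the macrophage-like rows at 5 dpw were brighter than those at 1 dpw.

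Neutrophil-like cells, the most numerous class with 2697 to 3887 cells in a library, had low levels. H2-Aa was 9.26, 45.2, 8.68 and 36.9 CPM there (Angptl4+/+ at 1 and 5 dpw, then Angptl4-/- at 1 and 5 dpw, the order used for every 4 values below). For the members with at least 20 UMIs in macrophage-like cells the median neutrophil-like level was 2.47%, 1.77%, 1.51% and 0.943% of the macrophage-like level. The 13 genes of the macrophage marker list had medians of 0.243%, 0.51%, 0.142% and 0.27%, although Spp1 was at 145 to 407% and Adgre1 at 9.23 to 11.3%. The members also came from dendritic cell-like cells, which held 43.4 to 71.7% of their UMIs in a library. The member and marker percentages are therefore not directly comparable. Ciita had 3, 16, 2 and 6 UMIs over all neutrophil-like cells of each library. The neutrophil-like levels of H2-Aa were higher at 5 dpw, as were the macrophage-like levels in the same libraries, and the part of free RNA in them was not tested.

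The chain genes of macrophage-like cells were several-fold higher at 5 than at 1 dpw in both genotypes. H2-Aa was 282, 2642, 575 and 3234 CPM. H2-Ab1, its partner chain, was 305, 2618, 593 and 3137 CPM, and H2-Eb1 was 167, 2052, 368 and 2661 CPM. Both libraries at 5 dpw therefore stood above both libraries at 1 dpw for each chain. The log2 ratio of 5 to 1 dpw in Angptl4+/+ wounds was 3.23 (3.17 to 3.29) for H2-Aa and 3.62 (3.55 to 3.70) for H2-Eb1, with H2-Ab1 between 3.05 and 3.16. The ratios in Angptl4-/- wounds were 2.49 (2.44 to 2.54), 2.40 (2.35 to 2.46) and 2.85 (2.79 to 2.92). H2-Eb1 was also nearer to H2-Ab1 at 5 dpw. Angptl4+/+ wounds had 0.547 UMIs of H2-Eb1 for each UMI of H2-Ab1 at 1 dpw against 0.784 at 5 dpw, and Angptl4-/- wounds had 0.62 against 0.848.

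The invariant chain gene, Cd74, had 989, 5986, 1709 and 7437 CPM, with a day ratio of 2.60 (2.57 to 2.63) in Angptl4+/+ wounds, against 2.12 (2.09 to 2.15) where Angptl4 was lacking. These ratios were below those of the chains, and Cd74 went from 1.31 to 0.819 UMIs per chain UMI in Angptl4+/+ wounds and from 1.11 to 0.823 in Angptl4-/- wounds. H2-DMa, the alpha chain of the peptide exchanger, was 58.2, 282, 84.4 and 302 CPM, and its beta chain gene H2-DMb1 43.2, 279, 67.0 and 315 CPM. Their day ratios were 2.28 and 2.69 in Angptl4+/+ wounds, and those of Angptl4-/- wounds were 1.84 and 2.23. The exchanger genes thus went from 13.6 to 7.79 UMIs per 100 chain UMIs in Angptl4+/+ wounds, and from 9.98 to 6.99 in Angptl4-/- wounds.

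The second beta chain gene, H2-DMb2, was sparse in these cells, with 12, 107, 11 and 107 UMIs, and H2-Oa, the alpha chain of the H2-DM inhibitor, had 4, 10, 2 and 14 UMIs. At that depth the counting interval of the H2-Oa ratio in Angptl4+/+ wounds included 0 (0.76, interval -1.04 to 2.88). Ciita, the transactivator, was 8.15, 78.2, 13.7 and 88.1 CPM, a day ratio of 3.26 (2.91 to 3.63) in Angptl4+/+ wounds, against 2.69 (2.35 to 3.05) in the knockout. Its level relative to the chains hardly moved, with 10.8 and 10.7 UMIs per 1000 chain UMIs in Angptl4+/+ and 8.91 and 9.76 in Angptl4-/- wounds.

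All 8 members with enough UMIs were past 2-fold higher at 5 dpw in each genotype, where 10.8% of 10978 genes in Angptl4+/+ and 7.92% of 10312 genes in Angptl4-/- wounds were. The median log2 ratio of these members was 2.90 in Angptl4+/+ and 2.45 in Angptl4-/- wounds, beside 0.19 and 0.11 over all genes tested. Ranked by day ratio among the 8804 genes with at least 100 UMIs in the Angptl4+/+ comparison, H2-Eb1 stood 8, Ciita 12, H2-Aa 14, H2-Ab1 19 and Cd74 42. The sum of the 9 genes was 1854, 13945, 3413 and 17191 CPM, a 7.52-fold difference between the days in Angptl4+/+ and 5.04-fold in Angptl4-/- wounds. On the log2 scale the sum differed by 2.91 (2.89 to 2.93) and 2.33 (2.31 to 2.35), and the Angptl4-/- ratio minus the Angptl4+/+ ratio was -0.58 (-0.61 to -0.55, counting error only), which could not be tested.

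**Figure D2:**
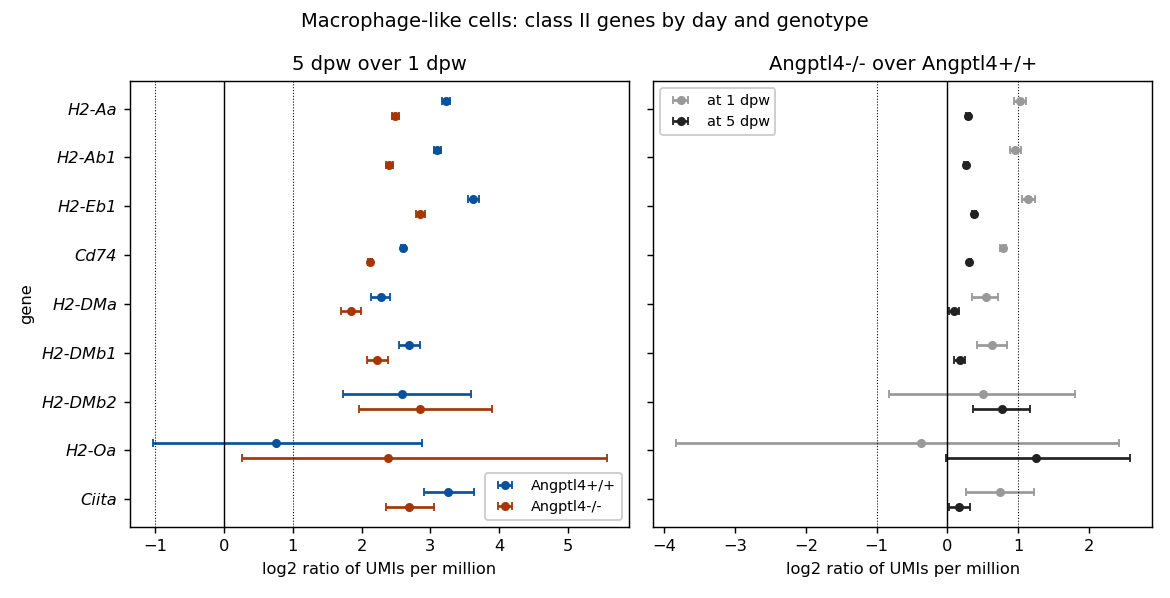
Log2 ratio of each class II gene in macrophage-like cells, for 5 over 1 dpw in each genotype (left) and for Angptl4-/- over Angptl4+/+ at each day (right). Bars are 95% counting intervals and the dotted lines mark 2-fold in either direction. The day ratios lay above 1 for every gene with at least 20 UMIs over both libraries, whereas most genotype ratios lay below it.

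Between the genotypes, macrophage-like members differed less than between the days. At 1 dpw the summed level in Angptl4-/- wounds was 1.84-fold that in Angptl4+/+ wounds (log2 ratio 0.88, 0.85 to 0.91). H2-Aa (1.03, 0.95 to 1.11) and H2-Eb1 (1.14, 1.05 to 1.24) were past 2-fold, that is 2 of 8 members, where 1.21% of 10234 genes were. H2-Ab1 (0.96), Cd74 (0.79), Ciita (0.75), H2-DMb1 (0.63) and H2-DMa (0.54) were also higher in Angptl4-/- wounds, by less than 2-fold. At 5 dpw the sum was 1.23-fold that in Angptl4+/+ wounds (0.30, 0.29 to 0.31). Only the sparse H2-Oa was past 2-fold among 9 members (1.25, interval -0.02 to 2.58), where 1.5% of 10954 genes were. The other ratios at 5 dpw ran from 0.10 for H2-DMa to 0.77 for H2-DMb2. The summed level was higher in Angptl4-/- wounds at both days under every processing alternative tried, with ratios of 0.57 to 0.99 at 1 dpw. Single members were not recomputed under the alternatives.

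A small number of cells carried the class II transcripts at 1 dpw. Of 1011 macrophage-like cells in Angptl4+/+ wounds, 26 held at least 50% of the member UMIs, and in Angptl4-/- wounds 18 of 722 did. At 5 dpw the numbers were 145 of 1425 and 88 of 614 cells. The median cell had 196, 3147, 253 and 9097 CPM of member UMIs, and the cell at the 90% point 3421, 38008, 6648 and 39552 CPM. So that depth could not set the shares, each cell was also thinned to 1000 UMIs. Cells with at least 3 of 1000 UMIs from the members were then 11.9% (9.95 to 14), 52.7% (50.1 to 55.3), 18.4% (15.6 to 21.4) and 66.6% (62.7 to 70.3) of macrophage-like cells. The same share was 0.234% to 1.24% of neutrophil-like cells, at medians of 3256 to 4700 UMIs against 6868 to 11778 in macrophage-like cells. Detection of H2-Aa at full depth was 17.1%, 61.5%, 21.5% and 72.5% of macrophage-like cells, and after thinning 8.42%, 44.4%, 14% and 57.1%.

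**Figure D3:**
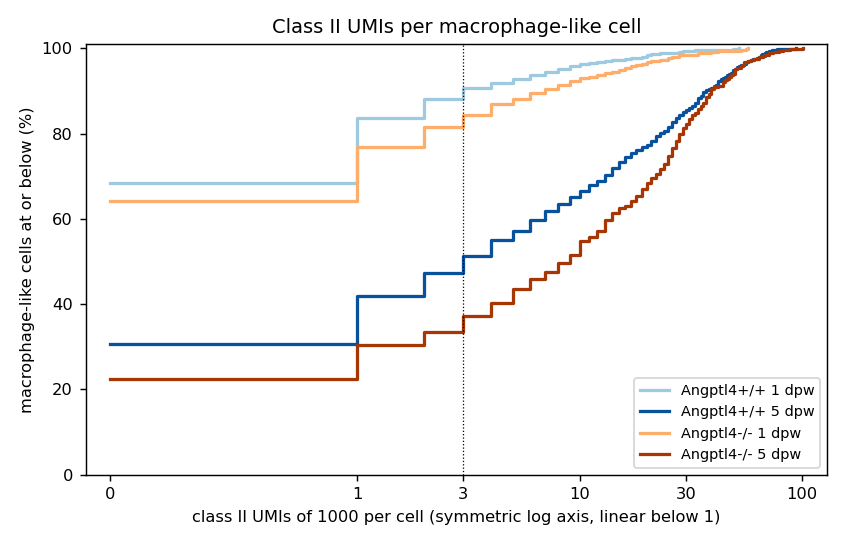
Cumulative share of macrophage-like cells (vertical axis, percent) against member UMIs out of 1000 UMIs drawn from each cell (horizontal axis). The dotted line marks the limit of 3 UMIs. The curves at 1 dpw start high, with 88.1% of Angptl4+/+ cells and 81.6% of Angptl4-/- cells at 2 UMIs or fewer, against 47.3% and 33.4% at 5 dpw.

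Other markers moved with the day in the same class. The 10 neutrophil markers, all of them detected, summed to 11715 and 9710 CPM in macrophage-like cells at 1 dpw and to 1780 and 1791 CPM at 5 dpw (Angptl4+/+ first). Of the 12 dendritic cell markers 7 to 11 were detected, with sums of 7.35, 63.1, 9.24 and 82.9 CPM, beside 2944 to 3748 CPM in dendritic cell-like cells. When macrophage-like cells with a UMI of any dendritic cell marker were left out, the summed day ratios were 2.66 and 2.08. Cells with at least 10 member UMIs of 1000 numbered 41, 497, 55 and 297, and their macrophage markers summed to 12867 to 19054 CPM, in each library below that of the other macrophage-like cells (16982 to 22704 CPM). A dendritic cell marker was seen in 14.6%, 33%, 14.5% and 40.4% of them, against 4.64%, 13.1%, 4.67% and 14.2% of the other cells, at higher median depths. In a cluster of the Arg1 sub-type (78, 27, 39 and 8 cells) 59.9% of cells were marked as doublets, and neutrophil markers were detected above the other cells by a mean difference of 0.187. Without marked doublets the summed day ratios were 2.92 and 2.28. The part of other neutrophil RNA in the values at 1 dpw was not tested.

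Within macrophage-like cells every sub-type had a higher summed level at 5 than at 1 dpw in both genotypes. Cells named by a wound macrophage list that holds Arg1 had the lowest sums, 908, 8465, 1349 and 10979 CPM. Those with complement C1q genes had 2519, 10286, 5403 and 15535 CPM. The cluster named by interferon-induced genes had 2423, 28618, 1732 and 20874 CPM, 11.8-fold and 12-fold between the days. A cluster of the Arg1 sub-type also scored 0.365 on the interferon list, below its 0.407 on the Arg1 list. Cells led by Vcan, a proteoglycan gene of monocytes, had 2460, 20262, 6233 and 18643 CPM. Their cluster scored 0.339 on the macrophage list and 0.29 on the monocyte list. Cells with Retnla, an alternative activation gene, were already high at 1 dpw with 10468 and 8673 CPM and had 21028 and 27435 CPM at 5 dpw. The cluster scored 0.37 on the Retnla list and 0.255 on the list of type 2 conventional dendritic cells, and both lists hold Mgl2. It scored 0.29 on the macrophage list and 0.042 on the dendritic cell list. In the Retnla sub-type the day ratio was the smallest in Angptl4+/+ wounds, at 1.01 (0.95 to 1.06), from 38 and 103 cells.

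The genotypes did not differ in 1 direction over the sub-types. At 1 dpw the log2 ratio of Angptl4-/- to Angptl4+/+ was 1.34 (1.28 to 1.40) in the Vcan-led, 1.10 (1.04 to 1.17) in the C1q and 0.57 (0.51 to 0.63) in the Arg1 sub-type, but -0.48 (-0.59 to -0.38) in the interferon and -0.27 (-0.35 to -0.19) in the Retnla sub-type. The ratios at 5 dpw were 0.59 for C1q, 0.38 for Arg1, 0.38 for Retnla, -0.12 for Vcan-led and -0.46 for interferon cells. At 1 dpw, 3 to 5 cells held at least 50% of the UMIs in each of these sub-types except the Arg1 sub-type, where 16 and 10 did. With the sub-types kept at their proportions of UMIs at 1 dpw, the summed fold between the days was 6.92 in place of 7.52 in Angptl4+/+ wounds, and 4.43 in place of 5.04 in Angptl4-/- wounds. With the levels kept as at 1 dpw and only the proportions changed, the folds were 1.53 and 1.39.

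**Figure D4:**
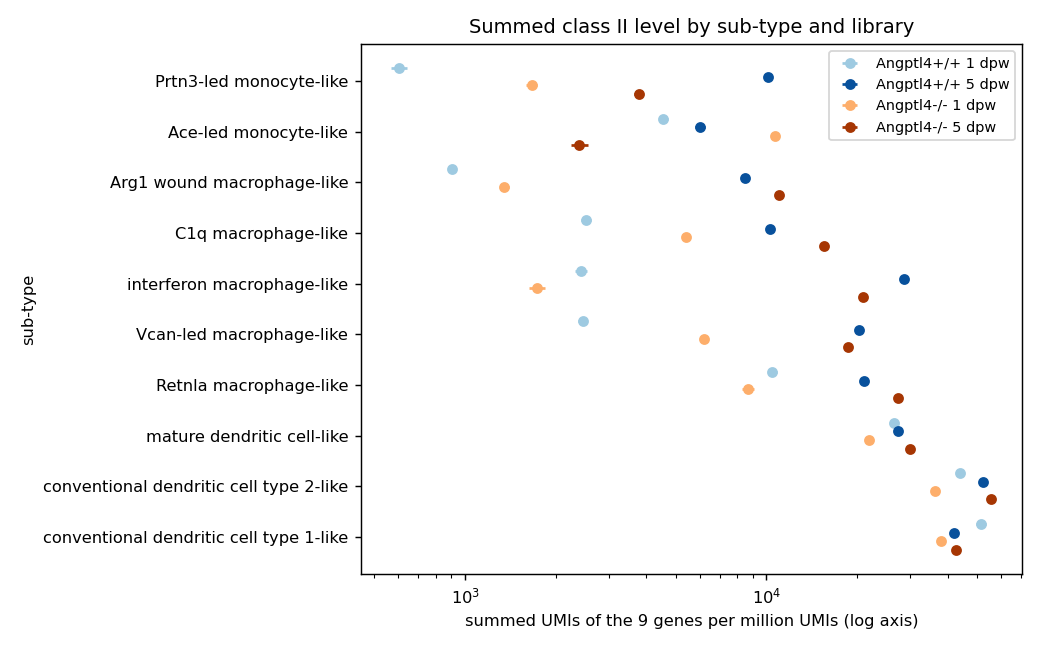
Summed level of the 9 class II genes, in CPM on a log axis, for every library and every sub-type of dendritic cell-like, macrophage-like and monocyte-like cells. Bars are exact Poisson 95% intervals. The Retnla sub-type was the highest of the macrophage-like sub-types at 1 dpw (10468 and 8673 CPM).

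In monocyte-like cells H2-DMa was detected far more often than the chains it serves. It was seen in 88%, 66.4%, 92.1% and 76.7% of cells, and H2-Aa in 17.1%, 33.6%, 31.5% and 32.3%, at medians of 9571 to 14757 UMIs. The levels of H2-DMa were 222, 349, 290 and 266 CPM, those of H2-Aa 246, 1507, 687 and 504 CPM. The imbalance was greatest in the Prtn3-led cells, named here by a granule protease gene of immature myeloid cells. Their H2-DM genes had 299 UMIs per 100 chain UMIs in Angptl4+/+ wounds at 1 dpw, and 15.6, 68.9 and 43 in the other libraries in order.

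The summed level of monocyte-like cells was 1733, 8380, 4295 and 3368 CPM, so that it was higher at 5 dpw in Angptl4+/+ wounds (log2 ratio 2.27, 2.22 to 2.33) and lower in Angptl4-/- wounds (-0.35, -0.40 to -0.30). These values moved with the processing. With class II genes among the variable genes the Angptl4-/- ratio was 0.20, and over the alternatives the Angptl4+/+ ratio ran from 0.80 to 2.70. The ratio of Angptl4-/- to Angptl4+/+ at 5 dpw was -1.31, and 0.19 without integration. In Angptl4+/+ wounds 5 of 7 members were past 2-fold higher at 5 dpw, namely H2-Aa, H2-Ab1, H2-Eb1, Cd74 and H2-DMb1, where 3.75% of 8420 genes were. No member was past 2-fold between the days in Angptl4-/- wounds, where 3.28% of 8234 genes were higher and 3.56% lower. At 1 dpw 5 of 7 members were past 2-fold higher in Angptl4-/- wounds (1.18% of 8643 genes), with ratios of 1.48 for H2-Aa and for Ciita. At 5 dpw 4 of 7 were past 2-fold lower (2.04% of 7803 genes), with H2-Eb1 at -2.56.

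These monocyte-like sums rest on few cells. At least 50% of the UMIs were held by 6 of 158, 8 of 131, 9 of 127 and 12 of 133 cells. Within the Prtn3-led cells the sum was higher at 5 dpw in both genotypes, with 604 and 10113 CPM in Angptl4+/+ and 1667 and 3764 CPM in Angptl4-/- wounds. Cells led by Ace, a gene of patrolling monocytes, had 4556 and 6019 CPM in Angptl4+/+ wounds and 10689 and 2397 CPM in Angptl4-/- wounds, from 41 to 57 cells, of which 20.6% over the libraries were marked as doublets. Without cells that had a UMI of a dendritic cell marker, the ratio of Angptl4-/- to Angptl4+/+ at 1 dpw was 0.19 in place of 1.31.

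Monocyte-like and macrophage-like cells were also pooled and split by Ly6c2, the gene of the monocyte surface protein Ly6C. Cells with at least 3 of 1000 member UMIs were 12.2%, 50.2%, 19.6% and 59.8% of them, and 8.3%, 42.7%, 14.4% and 52.8% at a limit of 5 UMIs. Between 57 and 151 cells per library lay at the limit of 3 or 1 UMI below it. Cells that were above the limit of 3 and also had Ly6c2 were 2.31%, 11%, 3.31% and 14.2%. Cells below it with Ly6c2 were 21.2%, 9.32%, 21.6% and 11.8%. All these shares are of the pooled cells and not of all cells in a library. At 5 dpw macrophage-like cells were 28.8% of all Angptl4+/+ cells and 13% of all Angptl4-/- cells.

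Dendritic cell-like cells had high levels at both days, with sums of 36179, 39480, 30158 and 44103 CPM. H2-Aa was 7466, 7781, 6104 and 8725 CPM and Cd74 14511, 15591, 12820 and 16930 CPM. The sums differed between the days by a log2 ratio of 0.13 (0.11 to 0.14) in Angptl4+/+ wounds, and by 0.55 (0.53 to 0.57) in Angptl4-/- wounds. Between the genotypes it was -0.26 (-0.28 to -0.24) at 1 dpw and 0.16 (0.15 to 0.17) at 5 dpw. No member was past 2-fold higher in Angptl4-/- wounds at 1 dpw (2.76% of 8110 genes) or at 5 dpw (2.44% of 9738 genes).

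Among these members H2-Oa had the greatest difference between the days. It had 33.8 (25.3 to 44.2), 113 (103 to 124), 26.3 (17.8 to 37.3) and 126 (113 to 139) CPM in dendritic cell-like cells. Angptl4+/+ wounds had a log2 ratio of 1.74 (1.33 to 2.18), and Angptl4-/- wounds of 2.26 (1.73 to 2.84). H2-Oa was 1 of 9 members past 2-fold in Angptl4+/+ wounds, where 4.88% of 9360 genes were. In Angptl4-/- wounds H2-Oa and H2-DMb2 (1.01, 0.68 to 1.34) were past it, where 3.62% of 8877 genes were. Ciita was 201, 327, 235 and 388 CPM, with day ratios of 0.70 and 0.72. H2-Ob, the beta chain of the same inhibitor, was 28.7, 39.3, 23.7 and 57.8 CPM.

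The 3 dendritic cell-like sub-types differed in their make-up. Type 2 conventional cells, with Cd209a and Mgl2, had 43832, 52488, 36335 and 55884 CPM of the members. Type 1 conventional cells, with Xcr1 and Clec9a, had 51630, 41918, 37953 and 42723 CPM, from 3, 12, 5 and 27 cells. Mature cells, with Ccr7 and Fscn1, had 26549, 27463, 21872 and 30073 CPM. The day difference of H2-Oa was present in the type 2 cells, with 41.5, 185, 37.4 and 175 CPM. Mature cells had 17, 98, 1 and 69 UMIs of H2-Oa from 52, 153, 43 and 81 cells, also more per cell at 5 dpw in both genotypes. Type 1 cells had 3, 22, 9 and 66 UMIs, and their day ratio in Angptl4+/+ wounds was 0.80 with an interval of -0.94 to 3.18.

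Mature dendritic cell-like cells had lower chain levels than type 2 cells and, relative to the chains, fewer H2-DM transcripts. H2-Aa was 5791, 5675, 4428 and 6395 CPM in mature cells and 8780, 10087, 7332 and 10786 CPM in type 2 cells. H2-DMa was 132, 202, 67.9 and 195 CPM in mature cells, and 677, 899, 708 and 995 CPM in type 2 cells. The H2-DM genes of mature cells had 2.54, 2.86, 1.98 and 2.47 UMIs per 100 chain UMIs, below the 6.31 to 7.44 of type 2 cells in every library. H2-Eb2, a class II beta gene beside H2-Eb1, had 61, 237, 36 and 165 UMIs in all, of which mature cells held 50, 207, 36 and 135. In B cell-like cells H2-Eb2 was 318, 57.6, 0 and 53.6 CPM, from 6, 5, 0 and 6 UMIs.

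The beta chain of H2-DM was drawn from its 2 genes in proportions that followed the cell type. H2-DMb2 supplied 3.09%, 2.89%, 2.84% and 4.29% of the beta chain UMIs in macrophage-like cells and 2.96 to 7.62% in type 1 dendritic cell-like cells. The shares were 14.8%, 17.4%, 10.6% and 19.9% in type 2 cells and 56.1%, 60.7%, 50% and 55.3% in mature cells. B cell-like cells had 89.7%, 72.7% and 77.2% in the 3 libraries with at least 10 such UMIs. The genes are close copies. Of the 31-base stretches in their transcripts 517 are shared, 31.4% of those of H2-DMb1 and 29.7% of those of H2-DMb2. The 3′ assay reads near transcript ends, and which annotated end it read was not determined. Within the last 400 bases of the 3 annotated transcripts of each gene, pooled, 31.5% of the stretches of H2-DMb1 and 0% of those of H2-DMb2 are shared. Part of the H2-DMb1 molecules may therefore not have been assigned, which was not measured. The split is uncertain to that extent, whereas its differences between cell types were read by the same counting in every library.

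B cell-like cells, 55 in all, had sums of 26146, 18075, 24333 and 18585 CPM from 5, 21, 2 and 27 cells, and all 55 were above the limit of 3 in 1000 UMIs. Cd74 was the most abundant member, with 12755, 9372, 12401 and 8708 CPM. In plasmacytoid dendritic cell-like cells, 33 in all, H2-Aa was 159, 995, 524 and 1425 CPM, and H2-DMb2 had 1 UMI over the 4 libraries.

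Genes that work with the members were described from lists of regulators and partners in macrophage-like cells. Over all genes tested there, 10.8% were past 2-fold higher and 5.36% lower at 5 dpw in Angptl4+/+ wounds. In Angptl4-/- wounds the shares were 7.92% and 4.35%. The lists are short, so their counts are a description beside these shares and were not tested. Of 12 genes for the transcription of class II, none was past 2-fold higher at 5 dpw in either genotype, and Socs1, a brake on cytokine signalling, was lower in Angptl4+/+ wounds (22.4 and 10.5 CPM, log2 ratio -1.10). Irf8, a myeloid factor, was 150.4, 242.5, 145 and 190.1 CPM. Of the 7 interferon-gamma pathway genes with at least 20 UMIs, 1 was past 2-fold higher in each genotype, the chemokine gene Cxcl9, with 0 CPM at 1 dpw and 4.89 CPM at 5 dpw in Angptl4+/+ wounds. Gbp2, a guanylate-binding protein gene, went the other way from the class II genes, with 164, 50.5, 172 and 52.4 CPM, and so did Gbp5 with 33.4, 10.2, 36.8 and 13.7 CPM.

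None of the 17 class I presentation genes was past 2-fold in Angptl4+/+ wounds between the days, their median log2 ratio being 0.00, and in Angptl4-/- wounds only H2-Q6 was, at -1.67. Nlrc5, the class I counterpart of Ciita, had 37.1, 25.7, 40.5 and 27.3 CPM. Of the 6 lysosomal processing genes measured none was past 2-fold in Angptl4+/+ wounds. Ctss, the protease that trims Cd74, had 2374, 3176, 2638 and 2504 CPM. Ctsl, another such protease, had 2044, 1122, 1669 and 834 CPM and was past 2-fold lower in Angptl4-/- wounds. March1, the ubiquitin ligase that removes class II from the surface, had 49.4, 93.4, 60.8 and 70.5 CPM, and of the 5 turnover and transport genes measured only Cd9, a tetraspanin gene, was past 2-fold, lower in Angptl4+/+ wounds. Of 6 costimulation genes, Cd40 was past 2-fold higher (1.16) in Angptl4+/+ wounds, and Cd80 (-1.91) and Cd274 (-1.49) were lower. Cd80 was also lower (-1.19) in Angptl4-/- wounds. In Angptl4+/+ wounds at 1 dpw, neutrophil-like cells had 2837 CPM of Cd9, 129 of Cd80 and 169 of Cd274. Macrophage-like cells had 978, 64.8 and 117 CPM. The part of neutrophil RNA in these macrophage-like values was not tested. In macrophage-like cells no gene of these lists differed between genotypes past 2-fold at 1 dpw. Of all genes tested, 1.21% were higher and 1.68% lower in Angptl4-/- wounds at that day. At 5 dpw only H2-Ob did, with 46 UMIs in Angptl4+/+ and 11 in Angptl4-/- wounds (-1.30, -2.40 to -0.33). The shares of all genes were then 1.5% higher and 2.15% lower.

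Since 7 members lie on the chromosome of the knocked-out gene, their neighbours were compared as well. Of 76 protein-coding genes within 1 Mb of Angptl4 or of the class II genes, without the class II genes themselves, 0 were past 2-fold higher in Angptl4-/- macrophage-like cells at 1 dpw and 1 was lower, Cd320 at -1.11 (-2.71 to 0.26). At 5 dpw 0 of 82 were higher and 3 were lower, namely Pram1 (-1.11), Zbtb12 (-1.09) and, just past the limit, Zfp563. The shares past 2-fold in either direction were 1.32% and 3.66%, beside 2.89% and 3.65% of all genes, and the median ratios were 0.04 and -0.06. In neutrophil-like cells the shares were 0% of 66 and 5.88% of 68 neighbours, beside 3.8% and 3.92% of all genes. Their median ratios were -0.04 and -0.11. Zfp101 was past 2-fold higher there at 5 dpw, and Ehmt2, Aif1 and Gm16181 lower.

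**Figure D5:**
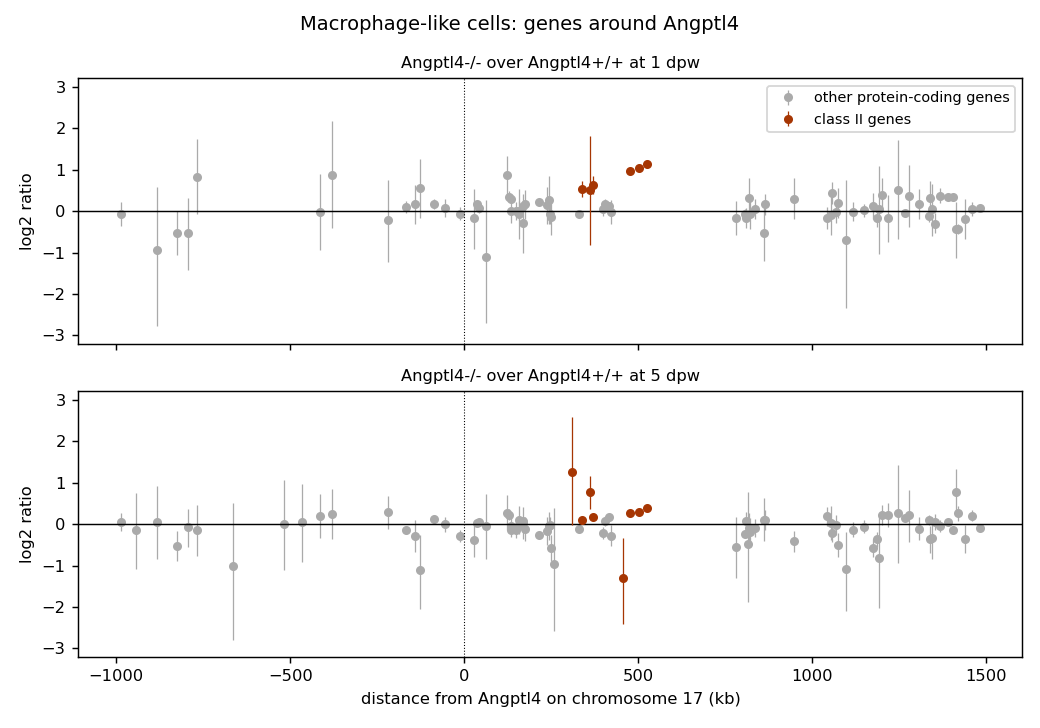
Log2 ratio of Angptl4-/- to Angptl4+/+ in macrophage-like cells for genes of chromosome 17, by distance from Angptl4 in kb, at 1 dpw (top) and 5 dpw (bottom), with 95% counting intervals and a dotted line at Angptl4. The class II genes, in red and including H2-Ob at 5 dpw, lay between 310.5 and 524 kb, and the grey neighbours had median ratios of 0.04 and -0.06.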

How the data were processed

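Deposited UMI counts per gene and barcode were analysed for 4 libraries (10x Genomics 3′ kit). The authors made these counts with Cell Ranger (3.1.0) on mm10, and the submitters' processing notes also name Seurat (3.0). The counts are whole numbers, not normalized. The members, marker lists and pathway lists were chosen with earlier results of these data known. No library is replicated, so the analysis gives values and no tests.

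Cells were kept at 200 or more genes and at most 10% mitochondrial UMIs (242 of 20069 barcodes failed). Anchor integration of the 4 libraries (Seurat 5.3.0 in R 4.3.3) used 2000 variable genes and 30 dimensions, without 11 class II genes, Angptl4, Ifi202b and Hebp1. Cells were clustered by the Louvain method at resolution 0.5. Mononuclear myeloid cells were clustered again at resolution 1.0, giving 26 clusters. A cluster took the name whose markers were detected most above the other cells. The mean difference had to reach 0.1, or 0.2 for a macrophage-like sub-type, except in neutrophil-like clusters, 3 of which were below 0.1 (0.009, 0.06 and 0.09). A cluster of 425 cells scored highest for macrophage markers (0.154) but stayed unnamed for its low depth. Names are rebuilt and may differ from the study's. Doublets were scored with scanpy (1.11.5), whose automatic threshold called 0 to 3 cells per library. The top-scoring 0.8% per 1000 cells (180 to 229 cells per library) were therefore marked as doublets and kept.

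Levels carry exact Poisson, shares exact Clopper-Pearson and log2 ratios exact conditional binomial 95% intervals (scipy 1.17.1), tested on simulated data. A count of 0 allows up to 3 UMIs. Depth ranged over median UMIs of 3735.5 to 4975.5 per cell. Thinning to 1000 UMIs left out 442 cells. Named genes were the 9 members, Angptl4, the listed pathway genes with the largest changes, the 10 genes most like the members and the neighbours on chromosome 17. The pathway values of Irf8, Nlrc5, Ctss and March1 were added for their roles, and 1 listed gene is not reported here. Alternatives were a stricter cell filter, no integration, resolution 1.0, class II genes among the variable genes, removal of doublets, median-ratio scaling, a mean over cells, thinning, pooled monocyte-like and macrophage-like cells, 1.5-fold, a minimum of 100 UMIs and, chosen after seeing the data, removal of cells with dendritic cell markers or of the Vcan-led sub-type.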

Additional observations from a re-analysis of the deposited data

Results flagged for a closer look

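In monocyte-like cells the class II genes differed between the days in opposite directions in the 2 genotypes, with 1 library each, and the difference was not tested. The opposite directions were lost with class II genes among the variable genes, where the Angptl4-/- ratio of the sum was 0.20. The Angptl4-/- log2 day ratio minus the Angptl4+/+ log2 day ratio was -3.06 for H2-Aa, -3.34 for H2-Ab1, -4.10 for H2-Eb1, -2.39 for Cd74, -1.33 for H2-DMb1, -1.44 for Ciita and -2.62 for the sum of the members. The intervals of both ratios left out 0 for each of them, but they cover counting error only and neither the spread between cells nor that between mice. The Prtn3-led cells were higher at 5 dpw in both genotypes (4.07 in Angptl4+/+ and 1.18 in Angptl4-/- wounds). The Ace-led cells had ratios of 0.40 and -2.16. In these classes 3 to 12 cells held at least 50% of the UMIs.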

How the results depend on the processing

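The log2 ratio of the summed class II genes in macrophage-like cells kept its direction in every alternative. It ran from 2.58 to 2.99 for the days in Angptl4+/+ wounds, 2.05 to 2.71 in Angptl4-/- wounds, 0.57 to 0.99 between genotypes at 1 dpw and 0.16 to 0.41 at 5 dpw. In this order the values were 2.87, 2.36, 0.79 and 0.28 with the stricter cell filter, 2.58, 2.22, 0.64 and 0.28 without integration, 2.72, 2.42, 0.71 and 0.41 with class II genes among the variable genes, 2.99, 2.60, 0.76 and 0.37 as a mean over cells, 2.94, 2.60, 0.72 and 0.38 after thinning, and 2.88, 2.05, 0.99 and 0.16 with monocyte-like cells included. They were 2.66, 2.08, 0.81 and 0.23 without cells with dendritic cell markers and 2.86, 2.71, 0.57 and 0.41 without the Vcan-led sub-type, both chosen after seeing the data. Resolution 1.0 gave 2.85 for the days in Angptl4+/+ wounds and 0.81 between genotypes at 1 dpw. Removal of doublets gave 2.28 for the days in Angptl4-/- wounds and 0.93 between genotypes at 1 dpw. Median-ratio scaling gave 2.73 and 2.22 for the days and 0.33 between genotypes at 5 dpw.

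The count of members past 2-fold between genotypes was less stable. At 1 dpw it was 1 with the stricter filter, at resolution 1.0 or with class II genes among the variable genes, 0 without integration, as a mean over cells or after thinning, 4 with monocyte-like cells included and 6 at 1.5-fold, against 2. At 5 dpw it was 0 after thinning, with monocyte-like cells included or at a minimum of 100 UMIs, and 2 at 1.5-fold, against 1. The share of all genes past the limit is not given for these alternatives, so their counts cannot be read against it. In monocyte-like cells the day ratio in Angptl4-/- wounds turned to 0.20 with class II genes among the variable genes, and the genotype ratio at 5 dpw to 0.19 without integration. In neutrophil-like cells the genotype ratio at 1 dpw turned to 0.05 by median-ratio scaling and by the mean over cells, and to 0.07 after thinning. The cause was not tested. No paired analysis was possible because each group has 1 library, and for the same reason no library could be left out. H2-Oa and H2-DMb2 were near the limit of detection in macrophage-like cells, and no interval covers the spread between mice.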

Other observations

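Mature dendritic cell-like cells held a fraction with few class II transcripts. After thinning, 36.5%, 30.7%, 44.2% and 27.2% of them had under 10 member UMIs of 1000 (Angptl4+/+ at 1 and 5 dpw, then Angptl4-/- at 1 and 5 dpw). The shares were 11.8%, 8.8%, 23.7% and 7.87% of type 2 and 0% of type 1 conventional cells. Among all dendritic cell-like cells, those under the limit had 5910, 5624, 5494 and 6142 CPM of the 12 dendritic cell markers, and those above it 2550, 3353, 3101 and 2553 CPM. Their median depths were 10605 to 13493 UMIs, against 13616 to 15528 above the limit. Mature cells were 19, 47, 19 and 22 of the 25, 58, 28 and 29 cells under the limit. The marker list holds Ccr7 and Fscn1, genes of the mature sub-type, so this contrast also reflects the mix of sub-types.

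Over the 22 sums of at least 20 cells of a class in a library, 10361 genes were ranked by the correlation of their log2 level (10 CPM added) with that of the summed members. Cd74, H2-Aa, H2-Ab1, H2-Eb1 and H2-DMa, which are part of the sum, took ranks 1 to 5, Ciita 11 and H2-DMb1 16, whereas H2-DMb2 ranked 808 and H2-Oa 1992. The most alike genes outside class II were Gdi2 (Pearson r = 0.941), Tmem168 (0.936), Zmiz2 (0.933), Lactb (0.932), Pkib (0.923), Nenf, Polb and Aamp (0.913 each), Cltb (0.911) and Apip (0.907). The points share libraries and depth, and no p is given.

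NK cell/T cell-like cells had sums of 661, 1621, 1357 and 3190 CPM, and 1 to 3 cells in each library held at least 50% of these UMIs. H2-Eb1 lay at 62.8, 250, 107 and 519 CPM in them.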
